A study of Mus musculus with 7 samples.

Results

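Immediate early genes that answer neuronal activity, and the effector genes switched on with or after them, were examined in the motor cortex of mice given a GA100 virus. The set held 40 genes, known activity genes taken by symbol from the deposited gene count table, and they were chosen with earlier results of these data known. That table lists 54532 genes. Of these, 16308 had enough counts to be tested, and all 40 members were among them.

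Immediate early genes are transcribed within minutes of synaptic input, without new protein synthesis, when calcium and kinase signals reach factors that already sit on their promoters, such as CREB, SRF with its ELK partners, and MEF2. The first products are largely transcription factors (the FOS and JUN families, the EGR family, NPAS4, the NR4A nuclear receptors). They act together with effectors that reach the synapse or leave the cell, such as ARC, HOMER1, BDNF and secretogranins. In cortex these transcripts are widely used as a readout of recent activity in neurons, and several are also induced by stress and growth factors in other cells.

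RNA-seq was done on motor cortex from 3 libraries labelled WT and 4 labelled cKO (conditional knockout). All mice of both genotypes received GA100 virus in the ventricles of both hemispheres on postnatal day 0, and tissue was taken 3 months afterwards, once behaviour had been tested. GA100 is named here as the labels give it, and the series title places it in a model of C9orf72 poly-GA, a dipeptide repeat protein of inherited amyotrophic lateral sclerosis, with Tia1 as the gene of interest. The interval between the behavioural tests and sampling, which matters for transcripts this short-lived, is not given in the sources used here. Neither are the Cre line, the cells or exons it deletes, or the promoter of the virus, and no mice without the virus were analysed here. Whether every library came from a different mouse is not stated, so the p-values reflect only the variation among these 7 libraries.

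The libraries held 15181390 to 16463721 counts, and no pair agreed within sampling noise. Tia1, counted over the whole gene, was at 60.6, 95.8 and 68.9 CPM in WT replicates 1 to 3 and 81.4, 80.3, 72.7 and 81.9 CPM in cKO replicates 1 to 4 (CPM, read counts scaled to a common library size with TMM factors). The groups overlapped and the log2 fold change, cKO minus WT as everywhere below, was 0.07 ± 0.13 (SE, edgeR adjusted p = 0.914). Without knowledge of the deleted exons this neither matches nor contradicts the labels, and "cKO" below means the libraries labelled so. cKO replicate 3 stood apart: markers of olfactory bulb neurons summed to 203 CPM there and to between 39.4 and 63.5 CPM in the others. Most of the sum in the others was Slc6a7, at 35.1 to 57.8 CPM, which was not raised in cKO replicate 3 (45.5 CPM). Of all genes tested, 24.9% had their highest value there, the largest such share of the 7 libraries, with 19.2% in WT replicate 1. Fold changes that moved by over 1.5 times or crossed 0 without cKO replicate 3 are also given without it.

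Most activity genes stood slightly higher in cKO, but no member passed the test. In edgeR's quasi-likelihood fit over all 16308 genes, 0 of the 40 members had an adjusted p under 0.05, against 0% of all genes, and the smallest adjusted p of a member was 0.669, for Tiparp. At an unadjusted p under 0.05 there were 9 members (Fos, Fosb, Fosl2, Egr1, Npas4, Tiparp, Homer1, Pcsk1 and Inhba), where the background was 7.14% of all genes. Each of the 9 was higher in cKO, and 4.22% of all genes met that rule in that direction. Fold changes were above 0 for 33 members, against 51.8% of all genes, and below 0 for Junb, Ier2, Ier5, Dusp1, Pim1, Plk2 and Vgf. The median over the 40 was 0.12 on the log2 scale, from -0.18 to 0.62, and 0.0074 over all genes tested. Every cKO library lay above every WT library for Fos, Npas4, Tiparp and Gadd45b, where 3.97% of all genes had groups apart in that direction. The opposite separation occurred in 0 members and in 3.42% of all genes. Activity genes are induced together and are not independent of one another, so these counts describe the libraries and the set as a whole was not tested.

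Other tools and filters gave other calls. DESeq2 called 0 of the 37 members to which it gave an adjusted p, against 0.0939% of all genes so treated, with a smallest member value of 0.127, and limma-voom called 0 of 40. With no filter on low counts, edgeR called 7 members (Fos, Fosb, Fosl2, Nr4a3, Tiparp, Homer1 and Inhba), against 0.633% of the 31277 genes then tested. Without cKO replicate 3, 0 members were called, 10 had an unadjusted edgeR p under 0.05, 30 had fold changes above 0 and the median was 0.12. Of the 16216 genes tested in that fit, 1549 had an unadjusted p under 0.05 and 48.3% had fold changes above 0. With any 1 library left out, 6 to 11 members had an unadjusted edgeR p under 0.05. Over all genes this count ran from 558 of 16689 without WT replicate 1 (8 members) to 1596 of 16104 without cKO replicate 1 (11 members). These members were all higher in cKO except without WT replicate 2. There 6 of 8 were higher, and Junb (-0.35) and Vgf (-0.26) were lower.

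**Figure D1:**
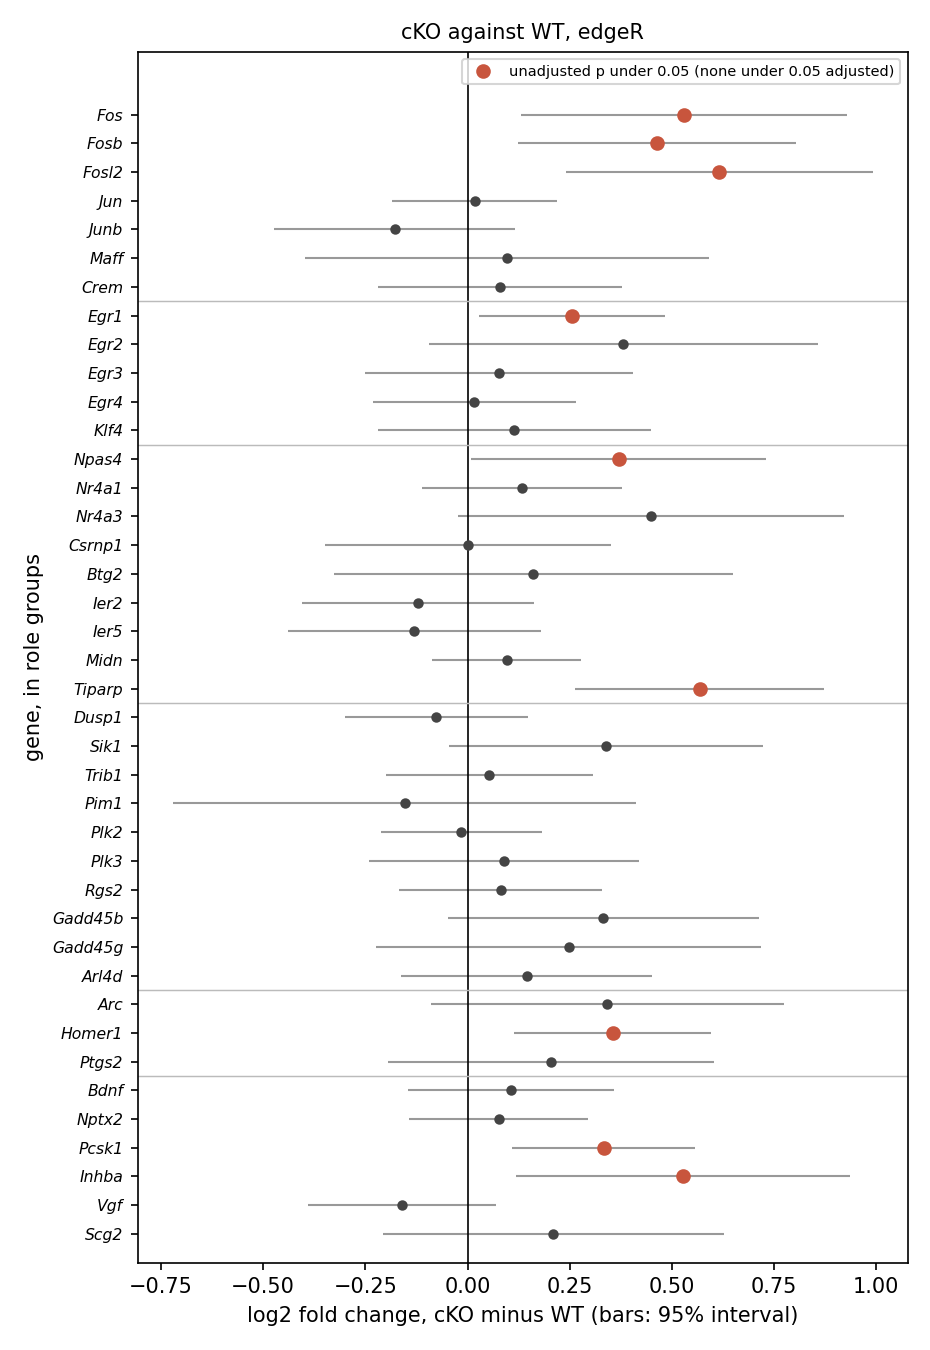
Log2 fold changes of the 40 genes (horizontal axis, cKO minus WT, with 95% intervals), in 6 groups by role from top to bottom (bZIP factors, zinc finger factors, other nuclear regulators, signalling regulators, synaptic effectors, secreted effectors). Red points mark the 9 genes with an unadjusted p under 0.05, which all lie right of 0, and 7 points lie left of 0.

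Promoter sequence is shown for 6 members because CREB, which binds the cyclic AMP response element (CRE), is a shared input of many of these genes. The windows are the 250 bases before the annotated start, taken from RefSeq on GRCm38.p6 (the assembly also called mm10), and 31 of the 40 members had at least 1 window, 49 in all. Not searched were Trib1, Nptx2, Egr1, Ier2, Vgf, Crem, Sik1, Arc and Egr3. The full element, TGACGTCA, and its 5-base core TGACG were searched on both strands, so each full element also holds core matches. The Fos window lies at chr12:85473640-85473889 (plus strand), Homer1 at chr13:93303507-93303756 (plus strand), Npas4 at chr19:4989972-4990221 (minus strand), Pcsk1 at chr13:75089607-75089856 (plus strand), Scg2 at chr1:79440027-79440276 (minus strand) and Tiparp at chr3:65528197-65528446 (plus strand). Each sequence runs 5′ to 3′ on the gene's strand and ends at the base before the RefSeq start, which for Homer1, Pcsk1, Scg2 and Tiparp lies inside the gene span of the deposited table. Capitals mark the core or the full element in either orientation (CGTCA is the core read from the other strand).
Fos: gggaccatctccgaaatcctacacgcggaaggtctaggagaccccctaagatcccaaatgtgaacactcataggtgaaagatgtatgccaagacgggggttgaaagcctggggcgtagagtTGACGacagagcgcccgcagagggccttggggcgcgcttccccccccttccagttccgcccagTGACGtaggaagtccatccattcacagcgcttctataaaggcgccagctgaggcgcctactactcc
Homer1: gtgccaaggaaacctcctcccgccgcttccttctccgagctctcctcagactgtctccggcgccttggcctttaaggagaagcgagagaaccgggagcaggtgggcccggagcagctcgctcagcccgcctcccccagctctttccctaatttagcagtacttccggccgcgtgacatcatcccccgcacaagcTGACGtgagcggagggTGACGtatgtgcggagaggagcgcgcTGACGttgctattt
Npas4: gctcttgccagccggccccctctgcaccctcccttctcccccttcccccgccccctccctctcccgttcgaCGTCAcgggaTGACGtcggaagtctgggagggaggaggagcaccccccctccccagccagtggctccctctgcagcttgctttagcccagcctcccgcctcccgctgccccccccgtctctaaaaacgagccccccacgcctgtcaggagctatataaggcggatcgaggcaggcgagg
Pcsk1: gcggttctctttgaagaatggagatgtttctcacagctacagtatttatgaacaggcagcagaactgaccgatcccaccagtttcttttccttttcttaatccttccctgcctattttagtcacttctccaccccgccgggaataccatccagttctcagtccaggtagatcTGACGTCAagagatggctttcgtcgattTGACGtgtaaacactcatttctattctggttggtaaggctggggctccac
Scg2: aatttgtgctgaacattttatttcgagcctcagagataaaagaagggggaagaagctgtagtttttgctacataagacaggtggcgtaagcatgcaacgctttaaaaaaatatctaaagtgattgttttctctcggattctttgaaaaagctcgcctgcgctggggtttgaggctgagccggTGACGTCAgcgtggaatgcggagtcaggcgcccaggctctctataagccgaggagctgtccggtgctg
Tiparp: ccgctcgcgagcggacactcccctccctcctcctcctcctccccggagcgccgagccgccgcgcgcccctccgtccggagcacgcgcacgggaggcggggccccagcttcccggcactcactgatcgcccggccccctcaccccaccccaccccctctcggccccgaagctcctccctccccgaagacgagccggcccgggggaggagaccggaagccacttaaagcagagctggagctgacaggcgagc
The Fos window held 2 cores. For Homer1 the window with the most cores is shown, and it held 3. Its other window, at chr13:93307784-93308033, held 0. Npas4 had 2, Pcsk1 and Scg2 each had a full element, and Tiparp had neither.

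A full element was found in 7 of the 49 member windows (14.3%) and in 508 of all 32851 windows of this length (1.55%). These belonged to Arl4d, Btg2, Dusp1, Maff, Pcsk1, Plk2 and Scg2. Their log2 fold changes were 0.14, 0.16, -0.08, 0.10, 0.33, -0.02 and 0.21 in that order. Those below 0, of Dusp1 and Plk2, had standard errors of 0.10 and 0.09. The signs for Dusp1, Plk2, Btg2, Maff and Scg2 changed in at least 1 fit with 1 library left out. The core was in 28 of 49 member windows (57.1%), from 22 genes, and in 17.8% of all windows. Some windows of 1 gene overlap, so these are counts of windows and not of independent sites, and a match is a string of letters, not a measured binding site.

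Of the 7 bZIP factors (leucine-zipper proteins, most of which form the dimer AP-1), Fos, Fosb and Fosl2 stood higher in most cKO libraries, and Jun, Junb, Maff and Crem had fold changes closer to 0. Fos, the classical marker of recently active neurons, lay at 20.4, 15.99 and 20.6 CPM in WT replicates 1 to 3 and 21.8, 23.8, 38.6 and 25.5 CPM in cKO replicates 1 to 4. The groups did not overlap, but the lowest cKO library exceeded the highest WT library by little and cKO replicate 3 was far above the rest. The means were 18.99 ± 2.60 CPM in the 3 WT libraries (SD) and 27.4 ± 7.57 CPM in the 4 cKO libraries, with a log2 fold change of 0.53 ± 0.18 (95% interval 0.13 to 0.93, edgeR adjusted p = 0.679). Without cKO replicate 3 it was 0.31, and without WT replicate 2 it was 0.41.

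Fosb (chr7:19302696-19310051, mm10) encodes a FOS relative whose truncated splice form, ΔFosB, builds up with repeated activity, and gene counts cannot part the forms. It lay at 22.5, 21.2 and 20.7 CPM in WT replicates 1 to 3 and 20.5, 30.7, 34.7 and 32.8 CPM in cKO replicates 1 to 4. Replicates 2 to 4 of cKO were above all WT libraries and cKO replicate 1 was below them all, and the log2 fold change was 0.46 ± 0.16 (adjusted p = 0.679). Fosl2 (chr5:32135801-32157842) encodes FRA-2, a slower FOS relative, and had the highest fold change of the set. It was at 48.7, 42.8 and 39.03 CPM in WT replicates 1 to 3 and 44.7, 66.5, 85.1 and 70.7 CPM in cKO replicates 1 to 4, with cKO replicate 1 inside the WT range and the other cKO libraries above it. Its log2 fold change was 0.62 ± 0.17 (95% interval 0.24 to 0.99, adjusted p = 0.679), and 0.47 without cKO replicate 3.

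Jun, a partner of FOS proteins, varied least of this group, between 30.6 and 35.4 CPM over all libraries, with a log2 fold change of 0.02 ± 0.09. Junb, a JUN relative with weaker transactivation, was at 61.8, 37.8 and 49.1 CPM in WT replicates 1 to 3 and 46.4, 41.5, 42.4 and 44.9 CPM in cKO replicates 1 to 4. WT replicate 1 was highest and WT replicate 2 lowest, so the WT libraries enclosed all cKO libraries. The log2 fold change was -0.18 ± 0.14 (adjusted p = 0.786), but -0.35 without WT replicate 2 and 0.01 without WT replicate 1. Junb also overlaps Prdx2 on the other strand, which had 1477 to 1970 counts a library, so part of its reads may not be its own. Maff, a small MAF factor with no activation domain, had 0.10 ± 0.23, at 2.69 to 4.46 CPM. Crem, whose internal promoter makes the CREB repressor ICER, had 0.08 ± 0.14, with the forms counted together.

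The 5 zinc finger factors had fold changes above 0, with a median of 0.11, and WT replicate 2 was their lowest library on average. Egr1, which is abundant in unstimulated cortex and widely used as an activity marker, was at 308, 279 and 346 CPM in WT replicates 1 to 3 and 330.5, 396, 339 and 419 CPM in cKO replicates 1 to 4. The groups overlapped through cKO replicates 1 and 3, while cKO replicates 2 and 4 were above every WT library. The means were 311 ± 33.6 CPM in the 3 WT libraries (SD) and 371 ± 43.4 CPM in the 4 cKO libraries, with a log2 fold change of 0.26 ± 0.10 (95% interval 0.03 to 0.48, adjusted p = 0.694). With the replicate number as a block it was 0.19, and its unadjusted edgeR p was then 0.106, which takes it out of the 9. In that fit cKO replicate 4 has no WT library of its number and adds nothing to the fold change. Leaving that library out also gave 0.19. Egr2, which in brain is induced by strong stimuli and also marks Schwann cells in nerve, had 0.38 ± 0.22 at 5.62 to 12.7 CPM, and 0.19 without WT replicate 2.

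Egr3, an EGR factor downstream of EGR1 and of BDNF signals, was at 274, 285 and 305 CPM in WT replicates 1 to 3 and 302, 369, 208 and 336 CPM in cKO replicates 1 to 4. The lowest value of all was cKO replicate 3, and the other cKO libraries were within or above the WT range. The log2 fold change was 0.08 ± 0.15 (adjusted p = 0.924) and 0.21 without that library (adjusted p = 0.419). Egr4, the neuronal member of the family, had 0.02 ± 0.11, and Klf4, a Krüppel-like factor also used in reprogramming, had 0.11 ± 0.15.

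Among the 9 other nuclear and RNA regulators, Tiparp and Npas4 separated the groups. Npas4, a bHLH-PAS factor induced by calcium entry and almost only in neurons, lay at 14.7, 8.89 and 12.9 CPM in WT replicates 1 to 3 and 14.95, 14.8, 17.99 and 15.2 CPM in cKO replicates 1 to 4. Every cKO library exceeded every WT library, although WT replicate 1 and cKO replicate 2 were nearly level. The log2 fold change was 0.37 ± 0.17 (95% interval 0.01 to 0.73, adjusted p = 0.696). It was 0.18 without WT replicate 2, the lowest library, and 0.29 without cKO replicate 3, and in both cases its unadjusted p was above 0.05. Tiparp, an ADP-ribosyltransferase that restrains the aryl hydrocarbon receptor, was at 17.6, 20.5 and 19.7 CPM in WT replicates 1 to 3 and 24.2, 25.01, 35.8 and 29.2 CPM in cKO replicates 1 to 4. Of the 4 genes whose groups were apart it had the widest gap, and its means were 19.2 ± 1.52 CPM in the 3 WT libraries (SD) and 28.6 ± 5.29 CPM in the 4 cKO libraries. The log2 fold change was 0.57 ± 0.14 (95% interval 0.26 to 0.87, adjusted p = 0.669), and 0.43 without cKO replicate 3. The window shown above for Tiparp held no match to the CRE core.

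Nr4a1 (NUR77), an orphan nuclear receptor, was at 94.1, 76.02 and 102 CPM in WT replicates 1 to 3 and 87.8, 99.6, 95.6 and 114 CPM in cKO replicates 1 to 4. The ranges overlapped in part, with the lowest value in WT replicate 2 and the highest in cKO replicate 4, and the log2 fold change was 0.13 ± 0.11 (adjusted p = 0.811). It was 0.01 without WT replicate 2 and 0.22 without WT replicate 3. Its relative Nr4a3 (NOR1) had 0.45 ± 0.22 (adjusted p = 0.70): cKO replicates 2 to 4 were at 48.9 to 62.8 CPM, WT libraries at 30.3 to 41.7 CPM, and cKO replicate 1 below them all at 27.6 CPM. Without cKO replicate 3 it was 0.28. The other regulators lay near 0. Btg2, an antiproliferative cofactor of mRNA decay, had 0.16 ± 0.22, and Midn, a nuclear protein that brings activity-induced transcription factors to the proteasome, had 0.10 ± 0.08. Ier2, a nuclear immediate early protein, had -0.12 ± 0.13, and Ier5, a regulator of heat shock factor HSF1, had -0.13 ± 0.14, which without cKO replicate 3 was 0.0028. Csrnp1, a nuclear factor, had 0.0014 ± 0.16, but overlaps Cx3cr1, a microglial receptor gene with 740 to 1071 counts a library.

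**Figure D2:**
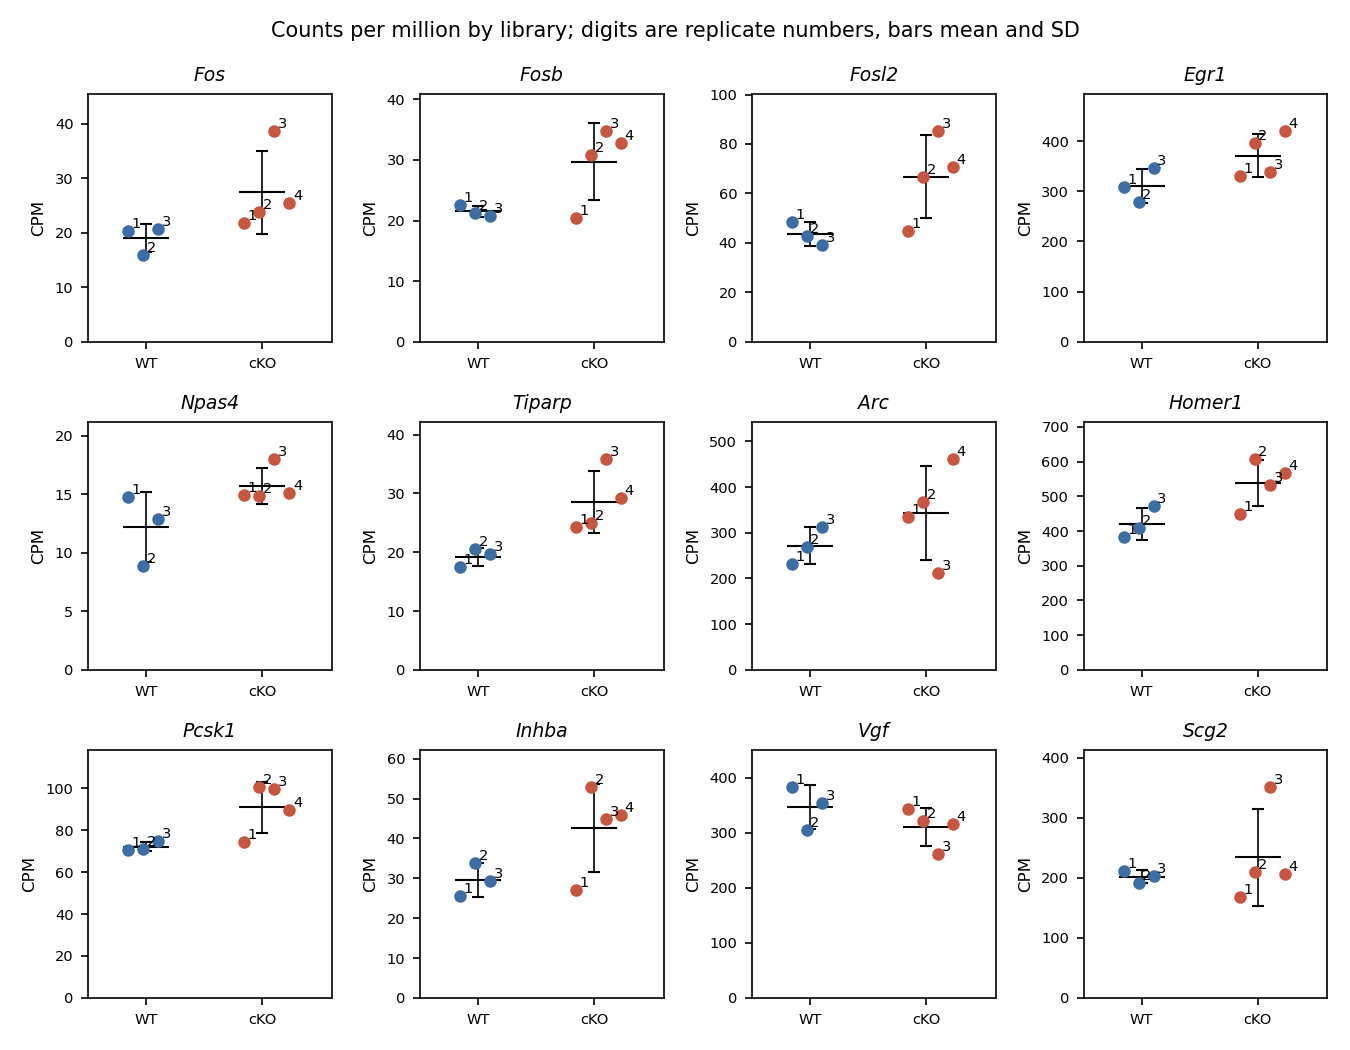
CPM (vertical axis, from 0) of 12 genes in each library, WT in blue and cKO in red, with replicate numbers beside the points and bars for mean and SD (n = 3 and n = 4). cKO replicate 3 is the highest point for Fos, Fosb, Fosl2, Npas4, Tiparp and Scg2 and the lowest for Arc and Vgf.

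Signalling regulators, which include the brakes on the pathways that induce these genes, had no member with an unadjusted p under 0.05. Dusp1, a phosphatase that switches off MAP kinases, was at 38.2, 33.1 and 42.4 CPM in WT replicates 1 to 3 and 38.3, 35.8, 32.7 and 36.9 CPM in cKO replicates 1 to 4. The 4 cKO libraries lay inside or just under the WT range, and the log2 fold change was -0.08 ± 0.10 (95% interval -0.30 to 0.15, adjusted p = 0.891). Gadd45b, a stress-inducible protein linked to DNA demethylation, was at 7.53, 7.60 and 6.41 CPM in WT replicates 1 to 3 and 8.38, 7.85, 11.97 and 8.02 CPM in cKO replicates 1 to 4. The groups did not overlap, by a narrow margin except in cKO replicate 3, and the log2 fold change was 0.33 ± 0.18 (adjusted p = 0.715), or 0.16 without that library. Its relative Gadd45g had 0.25 ± 0.22, but 0.07 without WT replicate 3, 0.09 without cKO replicate 3 and 0.41 without WT replicate 2.

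Sik1, a salt-inducible kinase that holds back the CREB coactivators, had 0.34 ± 0.18 (adjusted p = 0.715), and 0.21 without cKO replicate 3. The other 6 lay closer to 0. Arl4d, a small GTPase, had 0.14 ± 0.14. The polo-like kinases Plk2, which weakens overactive synapses, and Plk3 had -0.02 ± 0.09 and 0.09 ± 0.15. Rgs2, which shortens G-protein signals, had 0.08 ± 0.11, and Trib1, a pseudokinase, had 0.05 ± 0.12. Pim1, a serine kinase gene at 2.41 to 4.32 CPM, had -0.15 ± 0.26, and its wide interval of -0.72 to 0.41 goes with the low counts.

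The 3 synaptic and membrane effectors had the highest median of the 6 groups, 0.34. With 3 genes this is the value of Arc alone, whose dependence on single libraries is given below. Homer1 (chr13:93299635-93405129) encodes a postsynaptic scaffold, whose short activity-induced form HOMER1A takes the long forms apart, and all forms were counted together. It lay at 382, 408 and 473 CPM in WT replicates 1 to 3 and 448, 606, 532 and 567 CPM in cKO replicates 1 to 4. WT replicate 3 was above cKO replicate 1, and the other 3 cKO libraries were above all WT libraries. The means were 421 ± 46.7 CPM in the 3 WT libraries (SD) and 538 ± 67.3 CPM in the 4 cKO libraries, with a log2 fold change of 0.36 ± 0.11 (95% interval 0.12 to 0.60, adjusted p = 0.679) and 0.35 without cKO replicate 3.

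Arc (chr15:74669083-74672570), whose mRNA travels to active dendrites and whose protein removes AMPA receptors, was at 232, 269 and 313 CPM in WT replicates 1 to 3 and 335, 366, 213 and 460.4 CPM in cKO replicates 1 to 4. cKO replicates 1, 2 and 4 were above all WT libraries, and cKO replicate 3 was below them all. Means were 271 ± 40.4 CPM in the 3 WT libraries (SD) and 344 ± 102 CPM in the 4 cKO libraries, and the log2 fold change was 0.34 ± 0.20 (95% interval -0.09 to 0.77, adjusted p = 0.732). It was 0.51 without cKO replicate 3 (adjusted p = 0.178) and 0.16 without cKO replicate 4, so single libraries set its size. With the replicate number as a block, where cKO replicate 4 adds nothing to the fold change, it was 0.15. Ptgs2 (COX-2), the inducible prostaglandin synthase of excitatory neurons, was at 21.2, 22.8 and 14.5 CPM in WT replicates 1 to 3 and 17.5, 21.1, 29.2 and 22.2 CPM in cKO replicates 1 to 4. The ranges overlapped, from WT replicate 3 at the bottom to cKO replicate 3 at the top, and the log2 fold change was 0.20 ± 0.18, or 0.05 without the latter and 0.03 without the former.

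Of the 6 secreted effectors and their processing enzymes, Pcsk1 and Inhba stood higher in cKO, while the granin-like Vgf and the neurotrophin Bdnf showed no such difference. Pcsk1 (chr13:75089826-75134861), the prohormone convertase that cleaves neuropeptide precursors, was at 70.7, 71.2 and 74.7 CPM in WT replicates 1 to 3 and 74.4, 100.4, 99.7 and 89.5 CPM in cKO replicates 1 to 4. cKO replicate 1 was within the WT range and the other 3 were above it, and the log2 fold change was 0.33 ± 0.10 (95% interval 0.11 to 0.56, adjusted p = 0.679). Inhba (chr13:16011851-16031621), the subunit of activin A, was at 25.5, 33.8 and 29.3 CPM in WT replicates 1 to 3 and 26.9, 52.8, 44.98 and 45.8 CPM in cKO replicates 1 to 4. Again cKO replicate 1 lay within the WT range and the other 3 above it. Its log2 fold change was 0.53 ± 0.19 (95% interval 0.12 to 0.94, adjusted p = 0.691). A pseudogene overlapping Inhba on the other strand had 10.2% as many counts.

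Bdnf, the neurotrophin with several activity-controlled promoters counted together here, was at 36.96, 28.5 and 31.1 CPM in WT replicates 1 to 3 and 29.8, 38.8, 35.2 and 34.9 CPM in cKO replicates 1 to 4. The cKO libraries spanned about the same range as WT, and the log2 fold change was 0.11 ± 0.12 (95% interval -0.15 to 0.36, adjusted p = 0.862). It was 0.02 without WT replicate 2 and 0.21 without WT replicate 1. Nptx2, a pentraxin that gathers AMPA receptors on interneurons, was at 69.5, 57.99 and 64.3 CPM in WT replicates 1 to 3 and 58.4, 76.3, 66.3 and 68.6 CPM in cKO replicates 1 to 4. The groups overlapped, and the log2 fold change was 0.08 ± 0.10 (95% interval -0.14 to 0.30, adjusted p = 0.887), or 0.0009 without WT replicate 2.

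Vgf, a neuropeptide precursor of dense-core vesicles, was at 382, 304 and 354 CPM in WT replicates 1 to 3 and 343, 321, 261 and 316 CPM in cKO replicates 1 to 4. WT replicate 1 was highest and cKO replicate 3 lowest, and the log2 fold change was -0.16 ± 0.11 (95% interval -0.39 to 0.07, adjusted p = 0.760). It was -0.09 without cKO replicate 3 and -0.26 without WT replicate 2. Scg2, the granin that yields secretoneurin, was at 212, 191 and 203 CPM in WT replicates 1 to 3 and 168, 210.2, 350.3 and 206 CPM in cKO replicates 1 to 4. Only cKO replicate 3 stood out, at 350.3 CPM, and the remaining libraries lay between 168 and 212 CPM. Its log2 fold change was 0.21 ± 0.19 (adjusted p = 0.83), and -0.06 without that library. Scg2 and Pcsk1 both hold a full CRE in the windows shown, and their values by library differed.

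Per length of transcript, the most abundant members were 3 effectors and then Egr1 and Egr3. Mean FPKM over the 7 libraries (FPKM, a count scaled by transcript length and depth, as deposited) was 109 for Vgf, 102 for Arc, 87.2 for Scg2, 76.7 for Egr1 and 67.1 for Egr3. Other effectors and EGR factors were lower, with 5.39 FPKM for Bdnf and 2.64 for Egr2. Fos was at 10.1 FPKM, Npas4 at 4.32, Fosb at 4.18 and the lowest, Pim1, at 1.15. Variation between libraries was widest for Fos, with a ratio of highest to lowest CPM of 2.41, then Nr4a3 (2.28), Egr2 (2.26) and Fosl2 (2.18). It was narrowest for Ier2 and Jun, at 1.16 each.

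**Figure D3:**
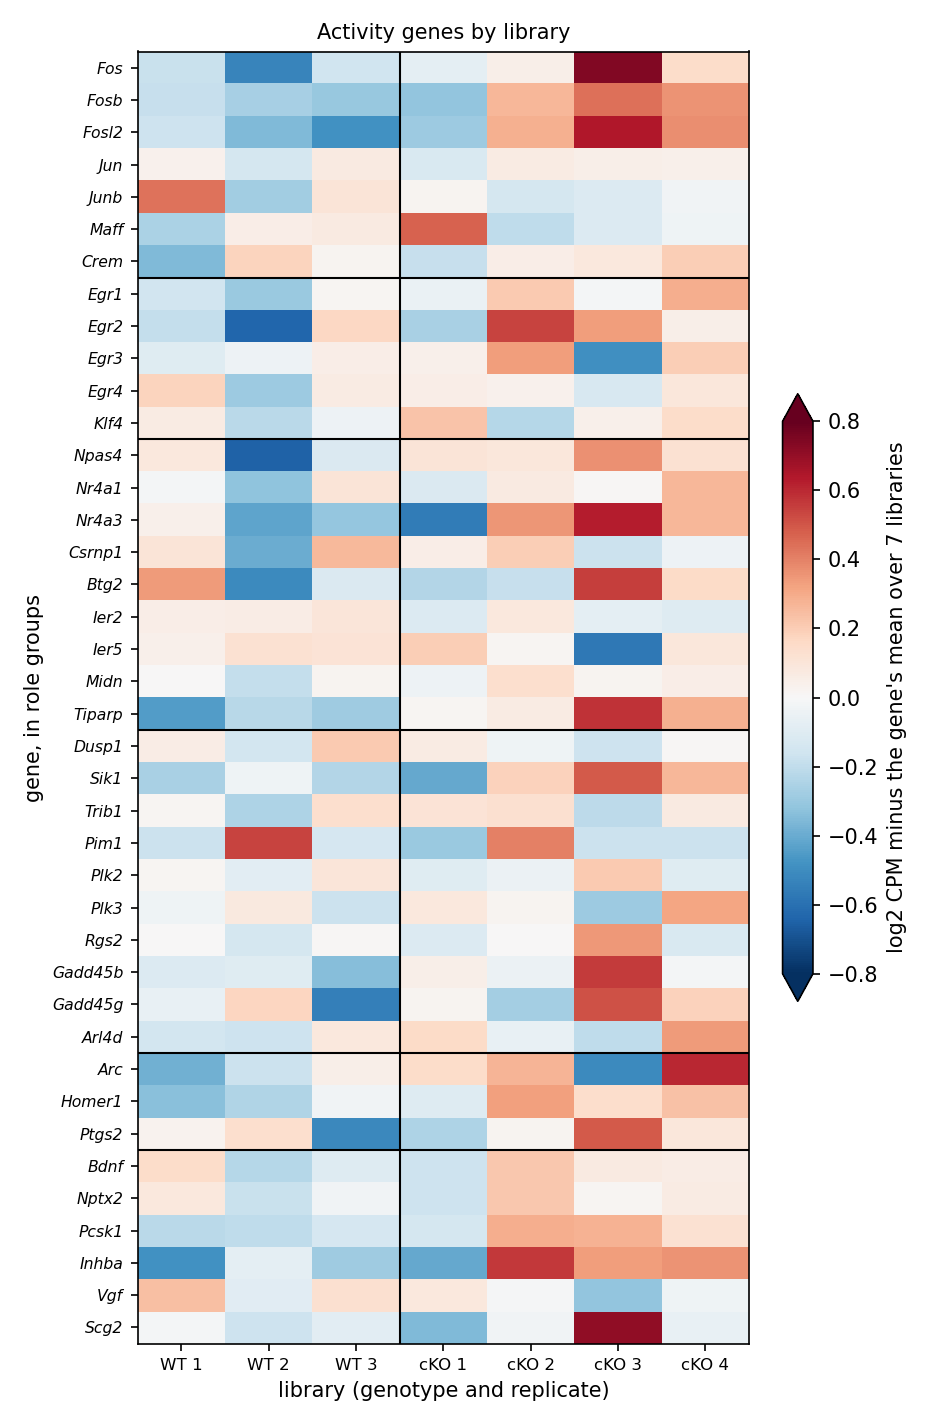
Log2 CPM of each gene (rows, in the 6 role groups) in each library (columns), less that gene's average across libraries, red above and blue below. WT replicate 2 is mostly blue, cKO replicates 2 and 4 mostly red, and cKO replicate 3 holds both the strongest red (Fos, Scg2) and clear blue (Arc, Egr3, Ier5).

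By library, the difference between groups lay between cKO replicates 2 to 4 and the rest. The mean deviation of the 40 genes from their own means, in log2 CPM, was -0.06, -0.17 and -0.06 in WT replicates 1 to 3 and -0.07, 0.11, 0.13 and 0.13 in cKO replicates 1 to 4. Thus cKO replicate 1 lay among the WT libraries, with 17 of 40 genes above their mean, against 29, 25 and 30 in the other cKO libraries and 19, 8 and 20 in WT. WT replicate 2 was the lowest library for 15 members, where 10.7% of all genes had their lowest value. cKO replicate 3 was the highest for 14 members and the lowest for 7, and it also held 24.9% and 24% of all genes' highest and lowest values. The spread of the members' deviations in that library was 0.36 (SD over 40 genes), against 0.39 over all genes tested there. Without cKO replicate 3, the fold changes of Btg2, Rgs2 and Jun were on the other side of 0, at -0.03, -0.04 and -0.0037. Those of Plk3, Arl4d, Trib1, Egr4 and Csrnp1 were then 0.18, 0.22, 0.12, 0.05 and 0.05, and those of Plk2 and Dusp1 -0.10 and -0.04.

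**Figure D4:**
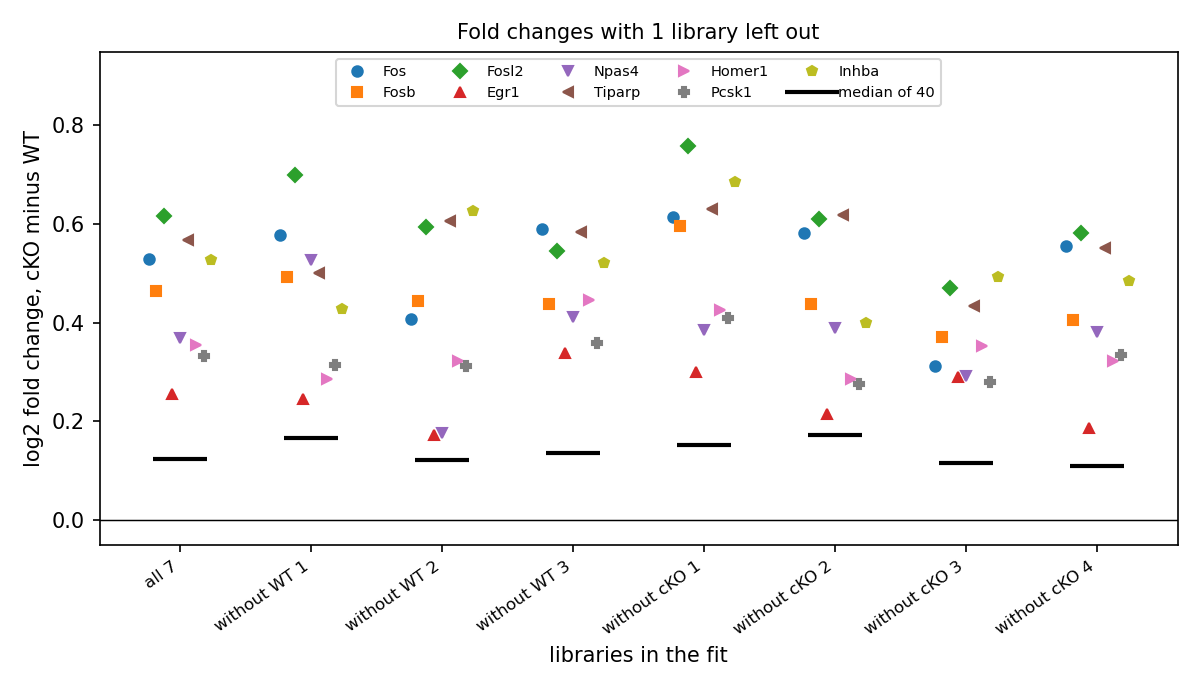
Log2 fold changes (vertical axis, cKO minus WT) of the 9 genes with an unadjusted p under 0.05 and, as black bars, the median of all 40, in the full fit and with each library left out in turn (horizontal axis). All stay above 0, Fos is lowest without cKO replicate 3 (0.31) and Npas4 without WT replicate 2 (0.18).

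Other activity-regulated genes, 36 transcripts outside the 40, had most fold changes above 0. This list, like the 40, was chosen with earlier results of these data known, so it is no independent check of them. Of the 36, 0 passed the test, 27 had fold changes above 0, and the median was 0.18. At an unadjusted p under 0.05, 9 were higher in cKO, read against the same 4.22% of all genes, and 1 was lower, against 2.91%. The 9 were Nfil3 (0.49 ± 0.13), a bZIP repressor, Errfi1 (0.36 ± 0.09), a brake on EGF receptors, Sgk1 (0.55 ± 0.16), a glucocorticoid-inducible kinase, Rgs4 (0.21 ± 0.08), a G-protein regulator, the small GTPases Gem (1.04 ± 0.32) and Rasd1 (0.36 ± 0.15), the mRNA-decay factor Zfp36 (0.41 ± 0.19), the chromatin remodeller subunit Baz1a (0.76 ± 0.26) and the stress factor Atf3 (1.35 ± 0.61). Counts of Atf3 were low, at 0.31, 0.74 and 0.66 CPM in WT replicates 1 to 3. In cKO replicates 1 to 4 they were 0.72, 0.73, 3.38 and 1.07 CPM, so cKO replicate 3 weighs heavily in its fold change. The 1 lower was Nptx1 (-0.24 ± 0.09), a relative of Nptx2. Nfil3 was at 9.49, 8.77 and 10.8 CPM in WT replicates 1 to 3 and 12.6, 13.4, 13.1 and 15.1 CPM in cKO replicates 1 to 4, with the groups apart, and Errfi1 was at 32.01, 33.7 and 38.8 CPM in WT replicates 1 to 3 and 43.8, 43.6, 46.2 and 45.6 CPM in cKO replicates 1 to 4, also apart. Groups were apart with cKO higher in 7 genes, against 3.97% of all genes, and with cKO lower in 1, against 3.42%.

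The upstream list, 37 genes for the receptors, kinases and constitutive factors that carry the signal to these promoters, was centred on 0. It had 17 fold changes above 0 and 20 below, a median of -0.01, and 0 genes past the test. At an unadjusted p under 0.05, Rps6ka3 (RSK2, a kinase of CREB) was higher at 0.26 ± 0.09 and Elk1 (a partner of SRF) lower at -0.21 ± 0.09. Its library means stayed between -0.04 and 0.03, a narrower band than that of the 40.

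Cell type markers differed between the same libraries. In bulk tissue, fewer cells of a type and less RNA per cell cannot be told apart. All 10 markers of cortical excitatory neurons, in which many of these transcripts are induced, were present, and their summed level was 7138, 6582 and 6542 CPM in WT replicates 1 to 3 and 6389.6, 5476, 5265 and 5978 CPM in cKO replicates 1 to 4. In this sum every cKO library was below every WT library, and 8 of the 10 markers had fold changes below 0. Camk2a alone was at 2270 to 3352 CPM. With the 10 weighted equally the groups overlapped, with a mean deviation of 0.03 in cKO replicate 1 and -0.0004 in WT replicate 2. Groups were apart with cKO lower in 1 marker, Neurod6, against 3.42% of all genes, and higher in 1, Slc17a6, against 3.97%. At an unadjusted edgeR p under 0.05, 3 of the 10 were lower and 1 was higher, against 2.91% and 4.22% of all genes. Markers of striatal medium spiny neurons, cells beneath the cortex that also express immediate early genes, summed to 1312, 1469 and 1631 CPM in WT replicates 1 to 3 and 1314, 2321, 1845 and 1534 CPM in cKO replicates 1 to 4. They were highest in cKO replicates 2 and 3, 10 of 10 had fold changes above 0, and none was at 0 in any library. Oligodendrocyte markers, which mark white matter, were also above 0 in 10 of 10 fold changes and summed to 3860.4 to 5898 CPM in WT and 4198 to 8331 CPM in cKO.

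Within cKO replicate 3, the olfactory bulb gene Cdhr1 was at 103 CPM, against 1.06 to 2.53 CPM elsewhere, and Eomes was at 14.6 CPM, against 0 in WT replicates 1 and 3 and cKO replicate 2. Choroid plexus markers summed to 180.4 CPM in cKO replicate 4 and to 16.8 to 24.8 CPM in WT. Meningeal fibroblast markers summed to 97.2 CPM in WT replicate 1, 109 CPM in cKO replicate 3 and 44.8 to 65.3 CPM elsewhere. Inhibitory neuron markers summed to 1502 CPM in cKO replicate 3 and to 1017 to 1221 CPM elsewhere. Microglial markers summed to 364 to 438 CPM in WT and 337 to 384 CPM in cKO, and blood markers to 12.9 to 70.7 and 19.0 to 89.3 CPM. The part of tissue composition in the activity gene values was not tested. Ddx3y, the only Y-linked gene examined, was above a set count in 5 of the 7 libraries, all but replicate 1 of each group. Among those 5 the median of the 40 was 0.21.

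**Figure D5:**
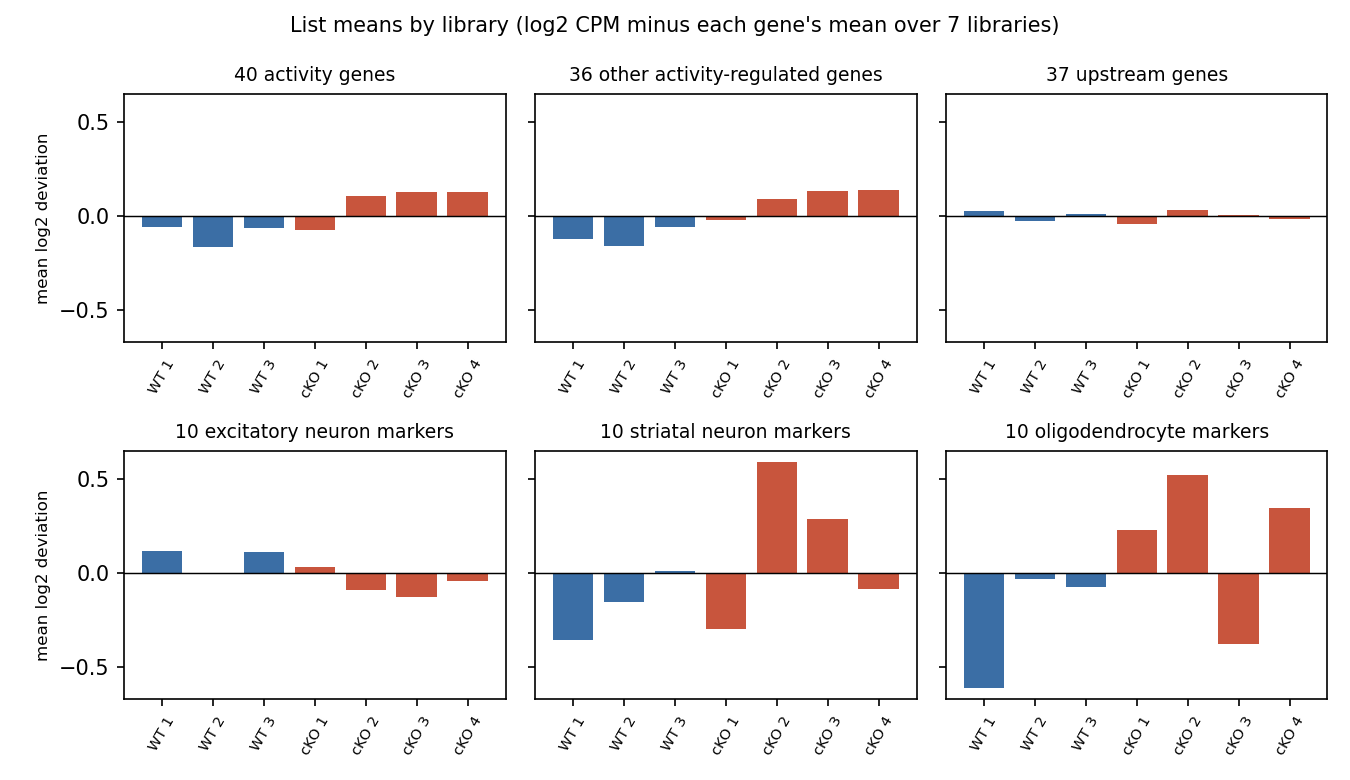
Mean deviation of log2 CPM from each gene's own average (vertical axis) for the 40 activity genes, both other pathway lists and 3 marker lists, by library (WT blue, cKO red). The 40 genes and the 36 other activity-regulated genes lie above 0 in cKO replicates 2 to 4 only, the upstream genes lie near 0, and excitatory markers lie below 0 in the same 3 libraries.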

How the data were processed

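Gene counts and FPKM for 7 mouse motor cortex libraries (3 WT, 4 cKO) were used. The authors deposited raw counts and FPKM per gene, made on mm10 with featureCounts (1.5.0-p3) and with DESeq2 (version 1.20.0) named beside it, per the submitters' processing notes. The deposited FPKM values served for levels between genes and for an alternative test. For the aligner, annotation release and strand setting: not given in the sources used here. The members and lists were chosen with earlier results of these data known.

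The deposited counts were tested with edgeR 4.0.16 (R 4.3.3): TMM factors, filterByExpr, quasi-likelihood F test on genotype, Benjamini-Hochberg adjustment over 16308 genes, called at an adjusted p under 0.05. Standard errors are the log2 fold change over the root of F. Mean deviations used log2 CPM with a prior count of 2. The fit was tested on simulated data. All members are named. Values in all libraries are given for 13 classical members and for those with an unadjusted p under 0.05 or groups that do not overlap. Of the 2 pathway lists, genes with an unadjusted p under 0.05 are named.

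Each fold change was recomputed with RLE or upper quartile factors, with library size alone, without the count filter, with a stricter one (1 CPM or more in 3 libraries), in DESeq2 1.42.0, in limma-voom (limma 3.58.1), by limma on log2(FPKM + 1) and log2(FPKM + 0.1), with each library left out, with the replicate number as a block, and in the libraries with Y-linked expression. One more, without WT replicate 1 and cKO replicate 3, was chosen after seeing the data. Both groups share replicate numbers 1 to 3. Deviations of same-numbered libraries correlated at 0.110, 0.128 and 0.122. WT replicate 2 with cKO replicate 4 gave 0.210, and WT replicate 1 with cKO replicate 3 gave 0.129, both higher. These values therefore do not establish pairs. The main fit used genotype only, and the replicate block was an alternative setting. In the block fit cKO replicate 4 has no WT library of its number and adds nothing to the fold change. Figures were drawn with matplotlib 3.10.9.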

Additional observations from a re-analysis of the deposited data

Results flagged for a closer look

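Among the 4 cKO libraries, 1 library lay far from the other 3 for 6 members, a gap that chance gives in about 1 in 20 groups. The share of all genes with such a gap was not computed, so the count is not a trait shown for the members. Jun was lowest in cKO replicate 1, at 30.99 CPM. Npas4 (17.99 CPM), Plk2 (222 CPM) and Gadd45b (11.97 CPM) were highest in cKO replicate 3. Ier2 (8.51 CPM) and Pim1 (3.92 CPM) were highest in cKO replicate 2. The mean deviation of the 40 genes was also far lower in cKO replicate 1, at -0.0739, than in the other cKO libraries.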

How the results depend on the processing

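Of the 40 members, 24 kept the sign of their fold change in every one of the 20 other settings. The count of all genes called, 0, was 198 with no filter on low counts, 10 with DESeq2, 3 with log2(FPKM + 1) and no filter, 2 with the replicate block, 1 without WT replicate 1 and cKO replicate 3, and 0 to 3 with 1 library left out. Members called were 7 with no filter and 0 in each other setting, and the cause was not tested. The replicate block, in which cKO replicate 4 adds nothing to the fold changes, changed no call of a member. It had 8 members (the 9 less Egr1) at an unadjusted edgeR p under 0.05 and a median of 0.11. The block turned Egr3 to -0.0104, Plk2 to 0.0104 and Plk3 to -0.0156. Jun was -0.0031 and Egr4 -0.0015 with upper quartile factors. Csrnp1 was -0.0054 with RLE factors, -0.0163 with upper quartile factors, -0.0029 with library size only, -0.0071 with no filter, -0.0057 with the strict filter and -0.0078 with DESeq2. In libraries with Y-linked expression Maff was -0.18 and Plk2 0.0142. Without WT replicate 1 and cKO replicate 3, Junb was 0.0284, Crem -0.073, Rgs2 -0.0132 and Scg2 -0.0172.

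With 1 library left out, fold changes crossed 0 for Jun (-0.055 to 0.0584), Junb (-0.35 to 0.0079), Maff (-0.0848 to 0.17), Crem (-0.0621 to 0.19), Egr3 (-0.0363 to 0.21), Egr4 (-0.12 to 0.11), Csrnp1 (-0.18 to 0.14), Btg2 (-0.0333 to 0.40), Ier5 (-0.23 to 0.0028), Dusp1 (-0.18 to 0.0114), Trib1 (-0.0566 to 0.14), Pim1 (-0.34 to 0.11), Plk2 (-0.10 to 0.0287), Plk3 (-0.0171 to 0.18), Rgs2 (-0.0425 to 0.13) and Scg2 (-0.0604 to 0.33). The members' median lay between 0.11 and 0.17.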
